A study of Mus musculus with 8 samples.

Results

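Transcript isoforms of 9 genes whose splicing or isoform use is known to differ between muscle and other cells were followed in muscle stem cells (MuSCs) of mice fed with or without vitamin A (VA). The genes were Pkm, the 4 tropomyosins Tpm1, Tpm2, Tpm3 and Tpm4, the transcription factors Mef2a, Mef2c and Mef2d, and Bin1. They hold 112 of the 116816 quantified transcripts with a gene and are 9 of 36047 genes. Members were chosen by gene name, and a transcript was described when it made up at least 5% of its gene's TPM in at least 1 library. TPM is the abundance of a transcript scaled for its length and for the library total. This left 49 transcripts: 2 of 11 for Pkm, 7 of 21 for Tpm1, 4 of 6 for Tpm2, 6 of 16 for Tpm3, 1 of 2 for Tpm4, 9 of 12 for Mef2a, 12 of 31 for Mef2c, 5 of 7 for Mef2d and 3 of 6 for Bin1.

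Young male Pax7 CreERT2-Rosa26 nTnG mice, in which tamoxifen switches Pax7-expressing cells and their descendants to a nuclear green fluorescent protein, were used in both diets, and all mice received tamoxifen. VA-free mice (n = 3) ate the custom diet without VA for 8 weeks, and control mice (n = 2) stayed on normal chow. Green nuclear fluorescence marked the cells that were sorted from gastrocnemius and quadriceps, and full-length cDNA was sequenced as 75 bp single-end reads from 8 libraries. The RNA of a mouse was split into technical libraries A and B, which were averaged or added so that the mouse was the replicate. VA-free 3, control 1 and control 2 had both libraries, VA-free 1 had library B and VA-free 2 had library A. Where values of single libraries follow, their order is 1B, 2A, 3A, 3B for VA-free and 1A, 1B, 2A, 2B for control. The custom diet and normal chow may differ in more than VA, which cannot be told apart from VA here. The libraries held 44831232 to 88650428 estimated counts. Control 2A stood apart from its partner 2B, with a chi-square per degree of freedom of 542 over gene counts, against 9.68 for the pair of VA-free 3 and 46.9 for the pair of control 1.

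In muscle, one gene often gives several proteins because exons are chosen in pairs, one or the other. Pkm encodes pyruvate kinase, the last enzyme of glycolysis, and carries either exon 9 (PKM1, the form of adult muscle and brain) or exon 10 (PKM2, the form of most proliferating cells). Tropomyosins are coiled-coil proteins that lie along actin filaments, and alternative first, second, sixth and last coding exons give striated muscle, smooth muscle and cytoskeletal forms. MEF2 proteins are transcription factors of muscle differentiation with alternative alpha exons and an optional beta exon. BIN1 bends membranes and takes part in building T-tubules.

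The exon pairs on which the results turn are shown first, because reads on the bases by which these exons differ help to separate the isoforms. Sequence outside these exons separates them as well. All are coding exons read from the Ensembl 96 transcripts (GRCm38), 5′ to 3′ on the gene's strand, and capitals mark the positions that differ from the other exon of the pair. Pkm exon 9 (chr9:59675029-59675195, plus strand) and exon 10 (chr9:59675568-59675734, plus strand) both span 167 bases, of which 103 are the same (61.7%).
Pkm exon 9: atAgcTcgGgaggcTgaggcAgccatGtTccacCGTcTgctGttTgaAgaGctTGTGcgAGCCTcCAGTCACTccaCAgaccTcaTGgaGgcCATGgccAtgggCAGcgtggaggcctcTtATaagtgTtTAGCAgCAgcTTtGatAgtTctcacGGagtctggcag
Pkm exon 10: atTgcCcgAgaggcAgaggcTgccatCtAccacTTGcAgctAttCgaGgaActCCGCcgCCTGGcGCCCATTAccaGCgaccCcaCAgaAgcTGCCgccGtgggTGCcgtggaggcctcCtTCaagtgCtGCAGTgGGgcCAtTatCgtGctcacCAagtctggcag

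The second exon of Tpm1 is exon 2a (chr9:67048124-67048249, minus strand), the smooth muscle choice, or exon 2b (chr9:67047786-67047911, minus strand), the choice of striated and many other forms. Both span 126 bases, of which 60 are the same (47.6%).
Tpm1 exon 2a: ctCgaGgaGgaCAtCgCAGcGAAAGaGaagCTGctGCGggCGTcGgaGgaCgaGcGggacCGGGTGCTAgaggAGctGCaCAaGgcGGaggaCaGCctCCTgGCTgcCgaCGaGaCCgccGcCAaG
Tpm1 exon 2b: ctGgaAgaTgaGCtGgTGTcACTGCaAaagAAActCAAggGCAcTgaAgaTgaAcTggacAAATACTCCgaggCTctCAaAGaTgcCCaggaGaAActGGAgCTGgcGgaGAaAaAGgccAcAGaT

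Tpm2 uses exons 6b and 9a in skeletal muscle and exons 6a and 9d in smooth muscle and non-muscle cells. Exon 6a (chr4:43519003-43519078, minus strand) and exon 6b (chr4:43518644-43518719, minus strand) span 76 bases, of which 41 are the same (53.95%). The coding stretches shown of exon 9a (chr4:43515924-43516003, minus strand) and exon 9d (chr4:43514782-43514861, minus strand) span 80 bases, of which 33 are the same (41.2%).
Tpm2 exon 6a: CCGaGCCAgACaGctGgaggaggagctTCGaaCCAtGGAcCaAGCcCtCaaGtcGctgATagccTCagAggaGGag
Tpm2 exon 6b: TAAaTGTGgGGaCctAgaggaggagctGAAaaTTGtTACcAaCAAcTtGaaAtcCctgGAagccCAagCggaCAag
Tpm2 exon 9a: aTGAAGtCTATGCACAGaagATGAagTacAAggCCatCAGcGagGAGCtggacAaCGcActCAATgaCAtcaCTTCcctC
Tpm2 exon 9d: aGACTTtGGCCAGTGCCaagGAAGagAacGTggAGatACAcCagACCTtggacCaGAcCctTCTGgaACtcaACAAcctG

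Isoform levels here are estimates that kallisto made by sharing out reads among transcripts. Of the 49 transcripts, 19 hold no 31-base word that is absent from all other transcripts of their gene, so their level rests on how words combine: 6 of 7 for Tpm1, 2 for Tpm3, 4 for Mef2a and 7 for Mef2c. For this reason the share of all transcripts that hold a given exon was also added up, for 35 exon choices.

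The sorted cells carried MuSC markers, with a summed level of 4169 to 4635 TPM for 9 markers in VA-free libraries and 1349 to 2347 TPM in control libraries, and 8 of the 9 were higher on VA-free. Markers of other cell types also differed between the diets, where 18.9% of all genes tested were called higher and 22.5% lower on VA-free. All 7 endothelial markers were lower on VA-free (summed 126 to 155 TPM against 513 to 1234 TPM), as were 5 of 5 Schwann cell markers (42.3 to 55.7 against 159 to 466 TPM) and 4 of 5 tenocyte markers (45.2 to 61.7 against 304 to 582 TPM). For smooth muscle and pericytes, 6 of 9 markers were lower and 1, Notch3, was higher. Their summed level was 1289 to 1725 TPM on VA-free and 1499 to 1947 TPM in control, and the contractile markers Myh11 (5.14 to 8.58 against 28.3 to 74.7 TPM) and Cnn1 (0.726 to 1.60 against 28.0 to 35.0 TPM) were low on VA-free but at 0 in no library. Acta2 was the largest part of that sum in each library (695 to 1088 against 769 to 1004 TPM). Rgs5 (5.44 to 10.8 against 315 to 513 TPM) and Kcnj8 (4.65 to 7.02 against 28.8 to 53.1 TPM) were low on VA-free too. Among myofiber markers 5 of 10 were lower (381 to 512 against 492 to 607 TPM), among macrophage markers 3 of 7 (31.7 to 169 against 196 to 830 TPM), and among fibro-adipogenic progenitor markers 3 of 7 were lower and 1 higher (10003 to 10716 against 4398 to 7286 TPM). Most of this last sum was Col3a1, the higher marker (5039 to 5266 against 496 to 2340 TPM), and Gsn, which did not pass (4209 to 4812 against 2314 to 3256 TPM). The lower markers were Dcn (54.4 to 93.8 against 984 to 1261 TPM), Lum (6.99 to 13.7 against 57.4 to 129 TPM) and Pdgfra (0.635 to 2.48 against 2.26 to 9.01 TPM). The part of these cells in the isoform results was not tested, and in bulk RNA fewer cells of a type and less RNA per cell cannot be told apart.

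At the gene level, 2 of the 9 genes were higher and 4 lower on VA-free (edgeR quasi-likelihood test on counts added per mouse, Benjamini-Hochberg adjusted p under 0.05). Over all 17997 genes tested, 41.4% were called, 18.9% higher and 22.5% lower on VA-free, so a call at the gene level was common. Count fold changes and TPM ratios differed in level. With limma on log2(TPM + 1), the median of all genes moved from 0.00 to 0.19 on the log2 scale and the share of calls that were higher from 45.6% to 68.7%. Mef2a, which did not pass on either scale, lay at -0.10 by counts (adjusted p = 0.549) and at 0.13 with limma (adjusted p = 0.403).

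**Figure D1:**
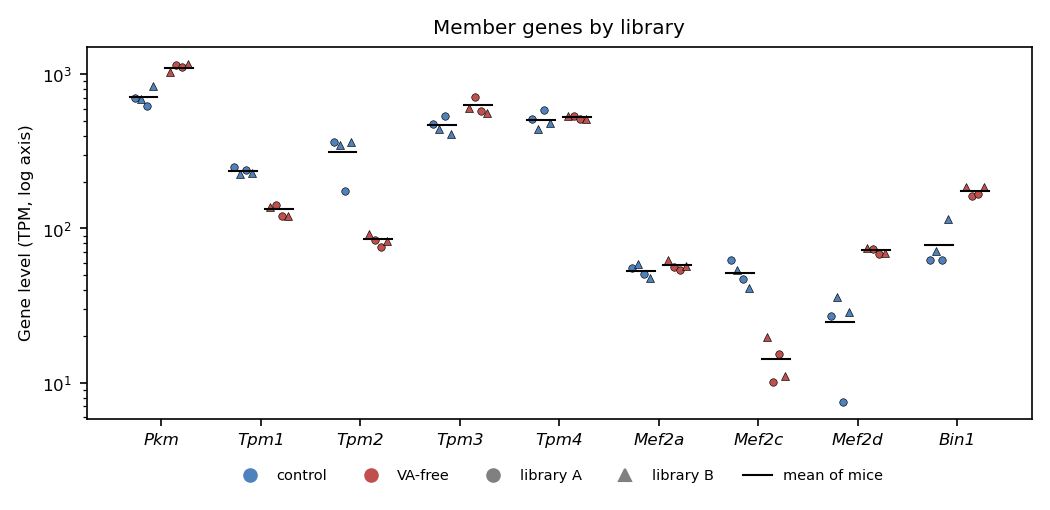
Level of the 9 genes in TPM on a log axis, per library (circles library A, triangles library B), with lines at the mean over mice of each diet. Tpm1, Tpm2 and Mef2c lie lower and Mef2d and Bin1 higher in all 4 VA-free libraries than in any control library, and Pkm and Tpm3 lie higher in TPM without passing the count test.

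For the share of each transcript within its gene, 5 of the 49 transcripts passed the test (limma on log2 odds of the share, adjusted over 49200 transcripts), 3 higher and 2 lower on VA-free. Among all transcripts tested, 892 or 1.81% passed, against 10.2% of the 49. All 5 belonged to tropomyosins: Tpm2-203, Tpm2-202, Tpm1-215, Tpm3-207 and Tpm3-211. In 29 of the 49 (59.2%) no VA-free mouse had a share within the range of the control mice, against 36.8% of all transcripts tested. The size of the difference was, however, not larger than elsewhere, with a median absolute log2 odds difference of 0.63 for the 49 and 0.74 for all. None of the 5 share calls held once any 1 mouse was left out, when 0 transcripts of the whole table passed limma's adjusted threshold (7311 to 8990 had an unadjusted p under 0.05), so calls rest on all 5 mice.

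**Figure D2:**
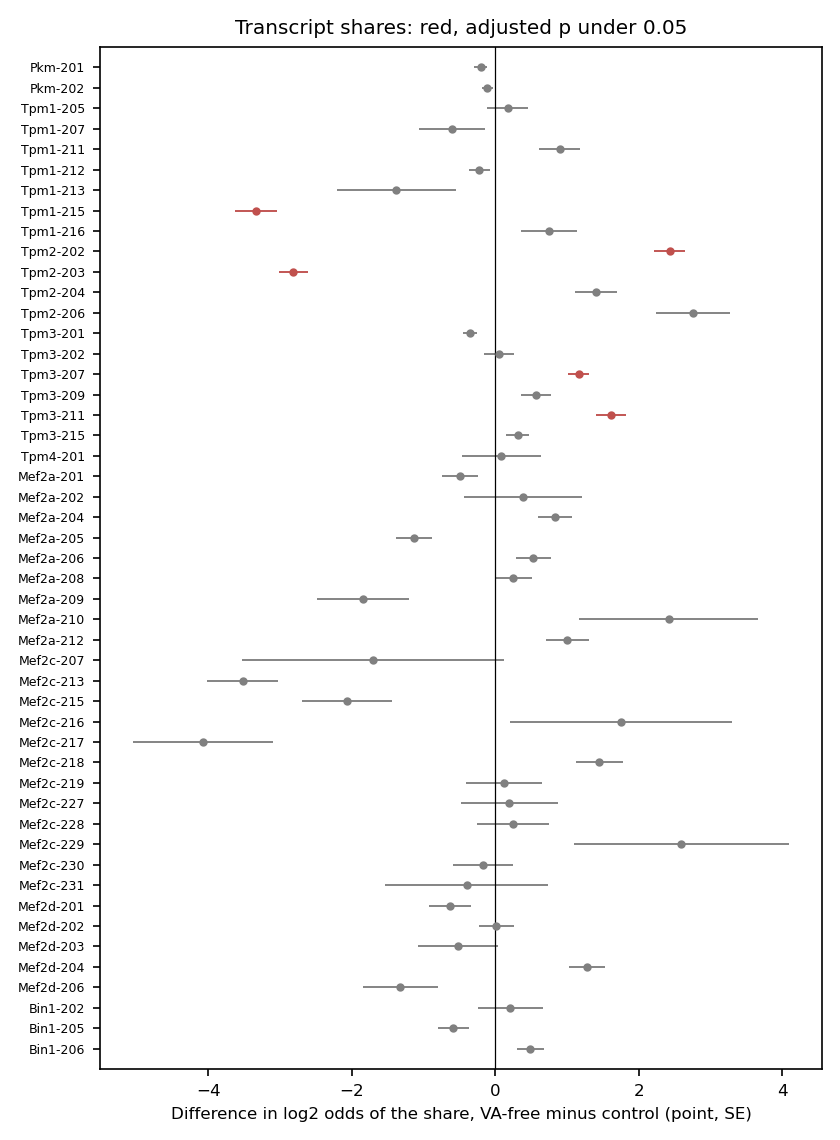
Difference in transcript share between diets (VA-free minus control, log2 odds, bars ± SE from limma) for the 49 transcripts, with the 5 of adjusted p under 0.05 in red. Tpm2-203 and Tpm1-215 lie at -2.81 and -3.34, and Tpm2-202 at 2.43. Several Mef2c transcripts lie as far out but with wide bars.

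Both forms of pyruvate kinase were present in MuSCs of either diet, and PKM2 transcripts outnumbered PKM1 transcripts in all libraries. Pkm-201, with exon 10, made up 61.8%, 61.8%, 64.2% and 62.7% of Pkm TPM on VA-free, and 64.5%, 64.5%, 66.8% and 66.5% in control. Pkm-202, with exon 9, made up 29.2%, 29.5%, 28.2% and 30.0% on VA-free and 31.6%, 31.1%, 30.9% and 29.8% in control. Each form thus took a slightly smaller part of Pkm on VA-free, and neither share passed the test (log2 odds difference -0.20 ± 0.09 SE, adjusted p = 0.344, and -0.11 ± 0.08 SE, adjusted p = 0.513).

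The balance of Pkm-201 and Pkm-202 did not move with diet by more than the mice differed. The ratio of Pkm-201 to Pkm-202 TPM was 2.13 ± 0.0478 (SD, n = 3) on VA-free and 2.13 ± 0.0976 (SD, n = 2) in control, a difference of 0.00558 (exact permutation test over mice, two-sided, p = 1). With 3 against 2 mice the smallest p this test can give is 0.1, here and for all exon shares below. Among transcripts with either exon, exon 9 took 31.9% ± 0.469 and 32.0% ± 0.997. Of the 185 31-base words that set the exon 9 form apart from the exon 10 form, the retained-intron transcript Pkm-203 (named here outside the rule for naming transcripts, after its values were seen) holds 166, which leaves 19 to Pkm-202 alone, while 576 words marked the exon 10 class. Pkm-203 made up 3.89%, 4.51%, 3.04% and 3.16% on VA-free and 1.10%, 1.61%, 0.490% and 0.908% in control. The exon 9 share and the ratio both leave it out, so an even balance holds only with Pkm-203 set aside.

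Retained-intron Pkm transcripts held more of the gene in all VA-free libraries. They made up 7.399%, 7.80%, 5.46% and 5.87% of Pkm TPM on VA-free, and 3.24%, 3.99%, 1.79% and 2.86% in control. The diets did not overlap, with means of 6.96% ± 1.14 (SD, n = 3) and 2.97% ± 0.911 (SD, n = 2), and an exact permutation p of 0.1. The 9 Pkm transcripts that each stayed under 5% together held 8.38% ± 0.832 and 3.54% ± 0.845.

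Whether Pkm as a whole was higher depended on the scale. Its level was 1030, 1143, 1119 and 1169 TPM on VA-free and 704, 693, 624 and 842 TPM in control, with no overlap and a TPM ratio of 1.54. Relative to the counts of other genes, Pkm did not pass (log2 fold change 0.15 ± 0.13 SE, edgeR adjusted p = 0.383), whereas limma on log2(TPM + 1) called it higher (0.63, adjusted p = 0.00626). Transcript counts of Pkm-201 and Pkm-202 were near even, at -0.04 ± 0.13 and -0.04 ± 0.12 on the log2 scale. Of 17 other glycolysis genes, 2 were higher and 6 lower, with a median of -0.18 on the log2 scale of the count fit. Since 18.9% of all genes were called higher and 22.5% lower, these calls are not read as particular to glycolysis. By likeness of log2(TPM + 1) over the 8 libraries, the tested genes closest to Pkm were Kif7 (Pearson r 0.997), Nup62 (0.996) and Kdm3a (0.995), described without a test because the 2 diets set most of the spread.

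**Figure D3:**
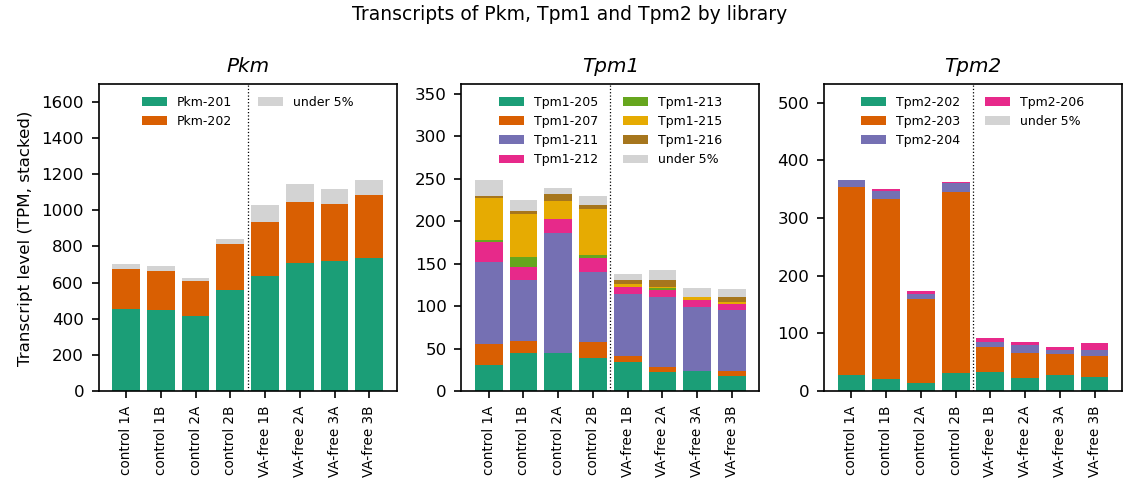
Stacked TPM of the transcripts of Pkm, Tpm1 and Tpm2 in each of the 8 libraries, with transcripts under 5% pooled. Pkm-201 and Pkm-202 keep their proportion while the bars are taller on VA-free, Tpm1-215 is nearly gone on VA-free, and Tpm2-203 shrinks while Tpm2-202 keeps its height.

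Tpm2, the gene of beta-tropomyosin, showed the clearest isoform difference. Its level was 92.6, 84.6, 75.9 and 83.2 TPM on VA-free and 367, 350, 174 and 363 TPM in control. All VA-free libraries lay below all control libraries, and control 2A held less than any other control library. The log2 fold change was -2.18 ± 0.17 SE (edgeR adjusted p = 0.000318), and -2.34 (adjusted p = 0.000104) without control 2A.

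The fall was in one of the isoforms. Tpm2-203, with exons 6a and 9d shown above, made up 48.2%, 51.1%, 47.4% and 44.6% of Tpm2 TPM on VA-free, and 89.1%, 88.8%, 83.8% and 86.7% in control. Tpm2-202, with exons 6b and 9a, the skeletal muscle combination, made up 35.3%, 28.0%, 37.5% and 29.0% on VA-free and 7.64%, 6.25%, 8.26% and 8.71% in control. The diets did not overlap for either isoform in any library, control 2A included.

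Tpm2-203 was lower in share (48.4% ± 2.54 against 87.1% ± 2.63, log2 odds difference -2.81 ± 0.21 SE, limma adjusted p = 0.0233) and Tpm2-202 higher (32.2% ± 3.79 against 7.72% ± 1.09, 2.43 ± 0.21 SE, adjusted p = 0.0305; all SD, n = 3 and n = 2). In level, Tpm2-203 fell from 275 ± 62.6 TPM in control to 41.5 ± 4.31 TPM (log2 fold change -3.32 ± 0.18 SE, edgeR adjusted p = 0.00462). For the level of single transcripts 8112 of 64308 or 12.6% were called, and 15 of the 49 (4 of Tpm1, 1 of Tpm2, 2 of Tpm3, 1 of Tpm4, 2 of Mef2a, 4 of Mef2c and 1 of Mef2d). The level of Tpm2-202 was 27.6 ± 4.65 TPM on VA-free and 24.0 ± 1.38 TPM in control, a mean that was higher in TPM and lower by counts, and did not pass (log2 fold change -0.40 ± 0.16 SE, edgeR adjusted p = 0.183). Its larger share therefore stood beside the loss of Tpm2-203 transcripts and beside no called rise of its own level. Without control 2B both share calls fell just past the threshold (adjusted p = 0.0530 for each).

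Other Tpm2 transcripts also took more of the gene without passing the share test. Tpm2-204, a processed transcript, made up 11.2% ± 3.26 and 4.15% ± 0.552 (log2 odds difference 1.41 ± 0.29 SE, limma adjusted p = 0.101). Its level was not higher, at 9.56 ± 2.66 TPM on VA-free and 12.6 ± 1.15 TPM in control (log2 fold change -0.98 ± 0.41 SE, edgeR adjusted p = 0.187). Tpm2-206 made up 8.18% ± 2.56 and 1.02% ± 0.983 (2.76 ± 0.52 SE, limma adjusted p = 0.0834), and its level of 6.99 ± 1.90 and 2.27 ± 1.62 TPM was not called (edgeR adjusted p = 0.410). These are short annotated transcripts of 337 and 401 bases, with 24 and 63 words of their own. Tpm2-201, with exons 6a and 9a, was listed at 0 in all libraries, so the exon 6 and last exon choices of Tpm2 coincide in these data.

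Tpm1, the gene of alpha-tropomyosin, was lower and lost nearly all of one isoform. Its level was 138, 143, 121 and 121 TPM on VA-free, and 249, 225, 239 and 229 TPM in control. No library overlapped (log2 fold change -1.27 ± 0.11 SE, edgeR adjusted p = 0.000409). Tpm1-215, which joins first exon 1a to exon 2a and ends in exon 9d, the smooth muscle combination, made up 2.19%, 1.18%, 2.40% and 1.63% of Tpm1 on VA-free, and 19.8%, 22.2%, 8.45% and 23.6% in control. Control 2A lay well below the other controls but still above all VA-free libraries.

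The share of Tpm1-215 was 1.79% ± 0.542 (SD, n = 3) against 18.5% ± 3.52 (SD, n = 2), a log2 odds difference of -3.34 ± 0.29 SE (limma adjusted p = 0.0303, and 0.0968 without control 2B). Its level was 2.38 ± 0.672 against 43.4 ± 8.79 TPM (log2 fold change -4.77 ± 0.29 SE, edgeR adjusted p = 0.00462). Tpm1-215 has no 31-base word of its own, but 182 words mark the exon 2a class of 3 transcripts. That class made up 1.79% ± 0.542 and 19.0% ± 4.23 of Tpm1 TPM (difference -17.2 percentage points, exact permutation p = 0.1). Among the transcripts with exon 2a or 2b, exon 2a took 3.77% to 9.17% in VA-free libraries and 26.2% to 42.5% in control libraries. The exon 2b share of the gene, 31.2% ± 5.55 and 30.1% ± 3.25, differed by less than the mice did.

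The other Tpm1 transcripts passed no share test. Tpm1-211, a short cytoskeletal form from first exon 1b, was the most abundant, with 52.5% to 62.2% on VA-free and 32.0% to 59.1% in control, where control 2A was the library at the top. Its log2 odds difference of 0.90 ± 0.29 SE had an adjusted p of 0.209. First exon 1b as a class held 66.5% ± 5.62 and 50.7% ± 7.37, and first exon 1a 32.2% ± 5.67 and 48.1% ± 6.15, with mice apart and libraries overlapping. Last exon 9a, used in striated muscle, held 21.0% ± 5.12 and 17.8% ± 0.874, and exon 9d 69.5% ± 4.41 and 71.9% ± 2.97, which overlapped. In level, Tpm1-205 (-1.24 ± 0.22 SE, edgeR adjusted p = 0.0255), Tpm1-211 (-0.98 ± 0.16 SE, 0.0202) and Tpm1-212 (-1.66 ± 0.16 SE, 0.00623) fell too, so the lower Tpm1 was spread over exon 1a and exon 1b forms. With 1 mouse or library left out at a time, Tpm1-212, Tpm1-215 and Tpm2-203 kept their level calls in all 11 fits, Tpm1-205 in 6 and Tpm1-211 in 5. The genes closest to Tpm1 over the 8 libraries were Gimap9 (Pearson r 0.998), Fam180a (0.993) and Casq2 (0.992), the last a calcium-binding protein of the sarcoplasmic reticulum.

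**Figure D4:**
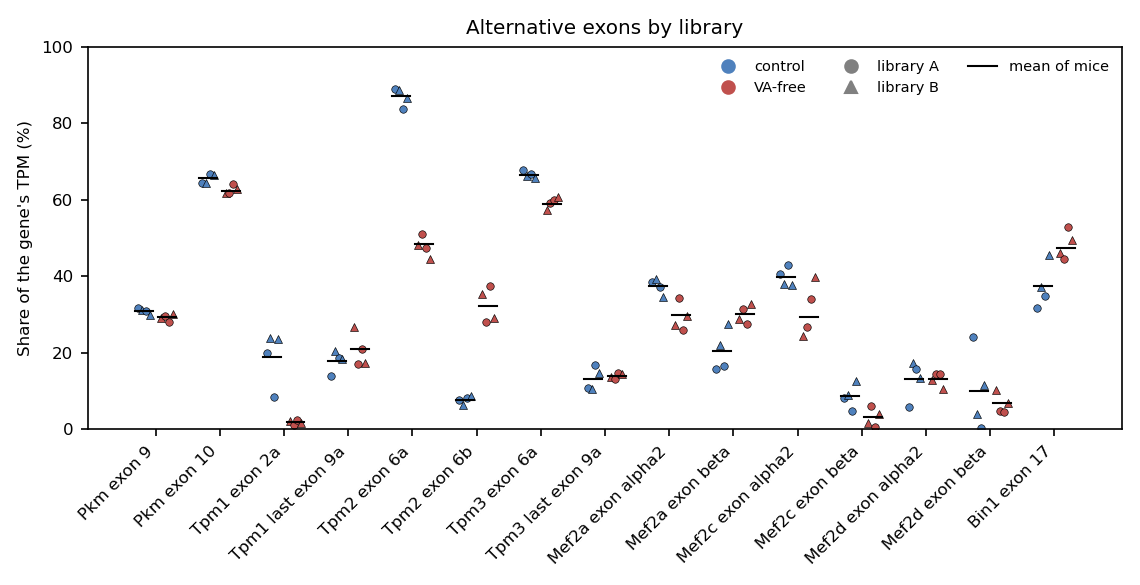
Percent of the gene's TPM in transcripts holding each of 15 alternative exons, per library (circles library A, triangles library B), with lines at the mean over mice of each diet. Tpm1 exon 2a and Tpm2 exon 6a lie lower, and Tpm2 exon 6b higher, in all VA-free libraries than in any control library, whereas Pkm exon 9 and Mef2d exon alpha2 overlap.

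Tpm3, whose short forms belong to the actin cytoskeleton of most cells, was the most abundant tropomyosin on VA-free. Its level was 609, 716, 578 and 563 TPM on VA-free and 478, 443, 536 and 411 TPM in control, with no overlap. Counts gave a log2 fold change of -0.07 ± 0.13 SE (edgeR adjusted p = 0.693), and limma on log2(TPM + 1) gave 0.43 (adjusted p = 0.0339), so its direction depends on the scale. The main transcript, Tpm3-201, joins first exon 1b to exons 6a and 9d and made up 59.0% ± 1.48 and 64.8% ± 0.847, lower in all VA-free libraries without passing the test (log2 odds difference -0.35 ± 0.10 SE, limma adjusted p = 0.183).

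Of the 8 retained-intron transcripts of Tpm3, Tpm3-207 and Tpm3-211 passed the share test, both higher on VA-free. Tpm3-207 made up 5.93%, 4.90%, 4.52% and 4.55% on VA-free and 1.68%, 2.24%, 2.71% and 1.65% in control. Tpm3-211 made up 5.18%, 3.49%, 3.81% and 3.14% on VA-free and 0.636%, 1.21%, 1.23% and 0.966% in control. The diets did not overlap for either. Tpm3-212, another retained-intron transcript (named outside the rule, after its values were seen, and with no word of its own), lay the other way: it was listed at 0 in all 4 VA-free libraries and at 3.29%, 0.739%, 0 and 2.94% in control, below the 5% needed for the share test, and its level was called lower (edgeR adjusted p = 0.0121).

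Both passed the share test (Tpm3-207 1.17 ± 0.15 SE, limma adjusted p = 0.0429, and Tpm3-211 1.62 ± 0.21 SE, adjusted p = 0.0440), close to the threshold. Tpm3-211 lost its call with edgeR's splicing test on counts (adjusted p = 0.0570), with an offset of 2 percent (0.0540), without a minimum gene TPM (0.0565) and on the plain percent scale (0.164), on which Tpm3-207 lost its call too (0.135). Both also rose in level (log2 fold change 1.11, adjusted p = 0.0215, and 1.82, adjusted p = 0.0204), calls that held in 6 and 5 of 11 fits with 1 mouse or library left out. All noncoding transcripts of Tpm3 together made up 26.5% ± 1.95 and 18.0% ± 1.11, and those of Tpm2 11.2% ± 3.23 and 4.17% ± 0.553, with exact permutation p of 0.1 each. The Tpm2 part was nearly all Tpm2-204, whose level was not higher on VA-free. Such sums were made for Pkm, Tpm2 and Tpm3 only, so no general rise can be read from them. In Mef2a, retained-intron Mef2a-209 was lower, at 1.70% ± 1.31 and 5.97% ± 0.378, and Mef2a-212 higher, at 4.93% ± 0.449 and 2.35% ± 0.956. Neither passed the share test (limma adjusted p = 0.241 and 0.186).

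**Figure D5:**
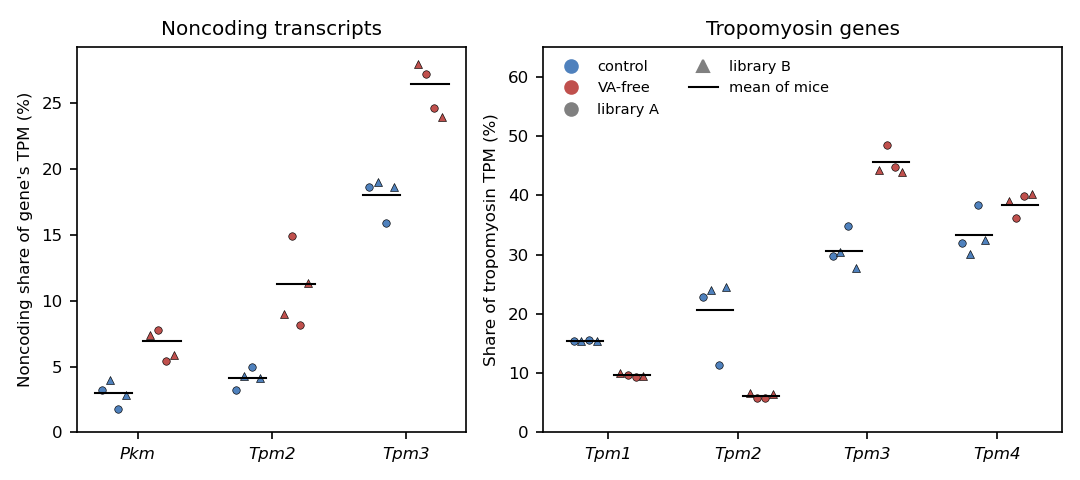
Percent of Pkm, Tpm2 and Tpm3 TPM in retained-intron and other noncoding transcripts, and each tropomyosin's percent of the summed tropomyosin TPM, per library, with lines at the mean over mice. The noncoding share is higher in all VA-free libraries for the 3 genes, and it was not summed for the other members. For Tpm2 it is nearly all Tpm2-204, whose level was not higher on VA-free. Tpm1 and Tpm2 take a smaller and Tpm3 a larger part of the tropomyosin pool in all VA-free libraries.

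Tpm4, a cytoskeletal tropomyosin, was nearly a single transcript, with Tpm4-201 at 99.1% ± 0.674 and 99.2% ± 0.337. Its level was 529 ± 13.1 TPM and 506 ± 42.1 TPM, which overlapped. The count fit called Tpm4 lower (-0.39 ± 0.11 SE, edgeR adjusted p = 0.0282), while limma on log2(TPM + 1) gave 0.07 (adjusted p = 0.642), so this direction too depends on the scale. The call was lost without any 1 VA-free mouse (adjusted p = 0.0935 to 0.0999) and without control 1A (0.102), 2A (0.0945) or 2B (0.0810).

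Seen as a pool, the 4 tropomyosins summed to 1380 ± 96.5 TPM on VA-free and 1522 ± 14.3 TPM in control (exact permutation p = 0.2). Within it Tpm1 held 9.70% ± 0.303 and 15.5% ± 0.0295, and Tpm2 6.21% ± 0.496 and 20.6% ± 3.91, while Tpm3 held 45.7% ± 2.40 and 30.7% ± 0.814, each with an exact permutation p of 0.1. Tpm4 held 38.4% ± 2.01 and 33.2% ± 3.07 (exact permutation p = 0.2). By level per length, the order on VA-free was Tpm3, Tpm4, Tpm1 and Tpm2. In control, Tpm4 and Tpm3 differed by less than the SD of Tpm4, and Tpm2 lay above Tpm1 in 3 of 4 libraries but below it in control 2A.

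Summed over Tpm1, Tpm2 and Tpm3, transcripts with last exon 9a stood at 142 ± 10.4 and 128 ± 19.0 TPM, which overlapped (exact permutation p = 0.4). Within this sum Tpm3 held 86.7 ± 6.14 and 62.3 ± 18.4 TPM, Tpm1 28.2 ± 7.66 and 41.9 ± 2.03, and Tpm2 27.6 ± 4.65 and 24.0 ± 1.38. The Tpm3 part includes Tpm3-202 (67.1 ± 6.61 and 49.1 ± 14.4 TPM), which holds first exon 1b, so the sum is not of muscle forms alone. Transcripts with last exon 9d stood at 507 ± 54.9 TPM on VA-free and 755 ± 53.1 TPM in control (exact permutation p = 0.1), or 59.5% ± 1.74 and 74.3% ± 1.11 of the TPM of the 3 genes. Of 17 other thin filament genes, troponins, tropomodulins, leiomodins, calponins and caldesmon among them, 11 were lower and 1 higher, with a median of -0.92 on the log2 scale. Over all genes tested, 22.5% were called lower and 18.9% higher. Of the 9 smooth muscle and pericyte markers, 6 were lower, Myh11 and Cnn1 among them, and 1, Notch3, was higher, with summed levels that overlapped. Acta2, smooth muscle actin, did not pass (-0.36 ± 0.19 SE, edgeR adjusted p = 0.174) and was the largest part of that summed level in each library. Rgs5 (-6.11, edgeR adjusted p = 0.000224) and Kcnj8 (-3.36, 0.000263) were among the lower markers. All endothelial and Schwann cell markers and 4 of 5 tenocyte markers were lower too, as given above. The part of any of these cells in the fall of Tpm1-215 and Tpm2-203 was not tested.

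Mef2c was lower and Mef2d higher in level, and no transcript share of the 3 Mef2 genes passed the test. Mef2c was 19.7, 10.1, 15.2 and 11.1 TPM on VA-free, and 62.8, 54.1, 47.2 and 41.1 TPM in control. It was lower in all VA-free libraries (log2 fold change -2.29 ± 0.21 SE, edgeR adjusted p = 0.000444). Endothelial cells and macrophages are also known to express Mef2c, and all 7 endothelial and 3 of 7 macrophage markers were lower, as given above; their part in the result was not tested.

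Mef2d went the other way, with 74.7, 73.8, 68.1 and 69.7 TPM on VA-free and 27.3, 35.8, 7.50 and 28.9 TPM in control, the lowest in control 2A. Its log2 fold change was 1.20 ± 0.24 SE (edgeR adjusted p = 0.00681), and the call was lost without control 1A (0.97, adjusted p = 0.0587) or control 2B (1.44, adjusted p = 0.0819). Mef2a was 58.2 ± 4.05 and 53.3 ± 5.40 TPM and did not pass (-0.10 ± 0.12 SE, adjusted p = 0.549), though a fit corrected for gene length called it lower (-0.38, adjusted p = 0.0405).

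Of the 9 alpha and beta exon classes of the Mef2 genes, the mice of the diets were apart in 5 by share of TPM and overlapped in the others. Exon alpha2 of Mef2d, which marks its muscle-specific form, made up 13.2% ± 1.04 and 13.1% ± 2.04 of Mef2d TPM (exact permutation p = 1), and exon alpha1 76.2% ± 4.07 and 68.6% ± 1.72. As a share of counts, exon alpha1 of Mef2d was 91.8% ± 1.15 and 90.9% ± 0.533 and overlapped. In Mef2a, exon alpha1 held 57.9% ± 5.05 and 53.4% ± 3.32 and exon alpha2 29.8% ± 3.85 and 37.3% ± 2.19, the latter lower in all VA-free libraries (exact permutation p = 0.2). The Mef2a beta exon, which strengthens transcriptional activity, stood at 30.1% ± 1.28 against 20.4% ± 2.13 (exact permutation p = 0.1), but as a share of counts it was 30.0% ± 1.31 and 27.4% ± 3.35 and overlapped. In Mef2c, exon alpha1 held 47.5% ± 4.41 and 44.9% ± 1.16 and exon alpha2 29.4% ± 6.70 and 39.8% ± 0.717. As shares of counts both directions turned and both overlapped, with alpha1 at 50.6% ± 7.52 and 55.6% ± 0.468 and alpha2 at 37.7% ± 11.2 and 33.5% ± 1.26. Its beta exon held 3.27% ± 2.41 and 8.55% ± 0.0877, with libraries overlapping.

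Single Mef2 transcripts came near the share threshold without passing it. Mef2d-204, an alpha1 form, made up 41.2%, 44.6%, 46.4% and 50.1% on VA-free and 20.8%, 32.9%, 5.41% and 39.8% in control. The libraries did not overlap, but the control libraries spread widely (log2 odds difference 1.28 ± 0.25 SE, limma adjusted p = 0.0919). Its level was called higher (1.59 ± 0.21 SE, edgeR adjusted p = 0.0121), in 8 of 11 fits with 1 mouse or library left out. Mef2c-213, which holds exon alpha1 and the beta exon, was listed at 0 in 3 of 4 VA-free libraries and at 1.32% in VA-free 3B, against 3.31% to 11.4% in control (-3.52 ± 0.50 SE, adjusted p = 0.0523). Mef2c-217, with exon alpha2, made up 0.956% ± 1.66 on VA-free, where 3 of 4 libraries listed it at 0, and 13.4% ± 0.491 in control (-4.07 ± 0.98 SE, adjusted p = 0.131). Of the 12 Mef2c transcripts, 7 have no word of their own, and Mef2c holds 450 to 1356 estimated counts per VA-free library, so their split is less firm than that of the deeper genes. In level, Mef2a-201 (-0.80, adjusted p = 0.0349) and Mef2a-205 (-1.46, adjusted p = 0.0290) were called lower, in 5 and 3 of the 11 fits with 1 left out.

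Bin1 was higher on VA-free, with 185, 162, 169 and 187 TPM on VA-free and 62.1, 71.7, 62.3 and 115 TPM in control. The libraries did not overlap (log2 fold change 0.74 ± 0.13 SE, edgeR adjusted p = 0.00509). Bin1-205, without exon 17, made up 52.7% ± 3.52 and 62.5% ± 4.25, and Bin1-206, with it, 41.2% ± 2.90 and 33.2% ± 3.06. Neither passed the share test (log2 odds difference -0.58 ± 0.21 SE, limma adjusted p = 0.260, and 0.49 ± 0.19 SE, adjusted p = 0.283). Exon 17, which lies in the Myc-binding part of the protein, was in 47.3% ± 3.52 and 37.3% ± 4.06 of Bin1 TPM (exact permutation p = 0.1), and control 2B, at 45.6%, overlapped the VA-free libraries. Exon 13 was in 4.51% ± 1.33 and 3.55% ± 1.33, and exon 7, a brain exon, in 1.15% ± 0.173 and 0.638% ± 0.311. The muscle exon of Bin1, exon 11, is in none of the 6 annotated transcripts, so no value can be given for it here.

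Over all 35 exon choices, the mice of the diets were apart in 21, of which 7 were higher and 14 lower on VA-free, and the libraries were apart in 11. Counted among transcripts with an exon of the choice, which 29 classes allow, the mice were apart in 14, with 7 higher and 7 lower, and the libraries in 6. No such count was made over exons of other genes. A share that falls in one class rises in another, so these counts are not independent.

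The RNA of several listed splicing regulators was higher on VA-free. Of 24 listed regulators of muscle splicing 23 were tested by counts, and 11 were higher and 0 lower (edgeR quasi-likelihood test), with a median log2 fold change of 0.46 against 0.00 for all genes. Over all genes tested, 18.9% were called higher and 22.5% lower. The list was drawn up with earlier results of these data known. PTBP1, hnRNPA1 and hnRNPA2B1 are known to repress exon 9 of Pkm, and SRSF3 to favour exon 10. Ptbp1 was 375, 382, 448 and 466 TPM on VA-free and 143, 151, 50.1 and 199 TPM in control, with no overlap (log2 fold change 1.10 ± 0.16 SE, adjusted p = 0.00212). Hnrnpa1 (0.00 ± 0.22 SE, adjusted p = 0.992), Hnrnpa2b1 (0.13 ± 0.18 SE, 0.621) and Srsf3 (0.18 ± 0.12 SE, 0.255) did not pass. The ratio of Pkm-201 to Pkm-202 given above thus stood beside a higher Ptbp1 and no called difference in the other 3.

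Among the other listed regulators, Rbfox2 (0.64, adjusted p = 0.0122) and Celf1 (0.71, adjusted p = 0.00280) were higher. Mbnl1 (0.11, adjusted p = 0.728) and Qk (0.46, adjusted p = 0.0633) did not pass. Rbm20, the splicing factor of titin, was higher by 1.48 (adjusted p = 0.000331), and so were Khsrp (1.34, 0.00588), Ptbp2 (0.71, 0.00626), Celf2 (0.70, 0.00554), Srsf1 (0.68, 0.00263) and Hnrnph1 (0.66, 0.00347). MuSC markers rose in the same mice, as given above, and their part in these levels was not tested.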

How the data were processed

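RNA of sorted MuSCs was measured by RNA-seq in 8 libraries of 5 mice (3 VA-free, 2 control). Per the labels and the study's methods, the authors made full-length cDNA, checked reads with FastQC and quantified them with kallisto 0.46.2 against GRCm38 (Ensembl 96). The deposited files hold estimated counts and TPM for 118489 transcripts. Of these, 116816 were given a gene by the matching annotation, and 0.647 to 0.756% of counts fell on the others. Gene and transcript estimated counts were rounded and added per mouse, and tested with edgeR 4.0.16 (TMM, filterByExpr, quasi-likelihood, Benjamini-Hochberg, threshold 0.05) with diet as the only term. Transcript shares (percent of gene TPM, averaged over the libraries of a mouse, gene TPM of at least 1) were tested with limma 3.58.1 on log2 odds with an offset of 0.5 percent. The transcript level test and the share within an exon choice were added after seeing the data. Exon shares were tested with an exact permutation over mice. DESeq2 1.42.0, limma on log2(TPM + 1) and log2(TPM + 0.1), length trends, a replicate block and leaving out mice or libraries were alternatives.

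Named were the 9 genes, their transcripts of at least 5%, 8 regulators always and at most 6 others past the threshold by smallest p, and the 3 genes most like Pkm and Tpm1. Other lists were described by counts. Members and lists were chosen with earlier results of these data known. On simulated data, edgeR recovered 77% of genes changed by 1 on the log2 scale and 100% of those changed by 2. For transcript levels it recovered 21% and 84%. The changed genes and transcripts were drawn from those of high mean counts, so these edgeR rates do not cover low counts. Limma recovered 0% of share changes of 2 and 15% of those of 4 in log2 odds. The simulation changed 100 shares of each size among 43702, whereas 8858 of 49200 real shares had an unadjusted p under 0.05. The adjustment is stricter where few shares change, so these rates need not describe the real fits. A share that did not pass may still differ. Libraries of a mouse share its cells, and intervals between mice do not cover errors of read assignment.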

Additional observations from a re-analysis of the deposited data

Results flagged for a closer look

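In each diet the 4 libraries were checked for 1 library far from the other 3 (the gap to the nearest library, over the range, above Dixon's 95% critical value). Of 186 groups checked, 15 were flagged, and chance flags about 1 in 20. The 2 libraries of a mouse are not independent, which bears on this rate. No explanation was weighed.

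Control 2A was far from the other controls in Tpm2 level, at 174 TPM against 350 to 367, and in the share of Tpm1 last exon 9d, at 78.1% against 69.6% to 70.03%. In Mef2c it was apart for Mef2c-215 (6.95% against 0 to 1.11%), Mef2c-216 (2.27% against 0), Mef2c-227 (7.44% against 3.62% to 4.04%) and Mef2c-230 (14.4% against 18.2% to 18.8%). Control 1A was high for Tpm1-212, at 9.46% against 6.83% to 7.09%, and control 2B for Mef2a exon alpha1, at 60.2% against 50.8% to 51.4%.

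VA-free 1B was low for Tpm1 last exon 9d, at 64.4% against 71.8% to 72.4%, and high for Tpm3-215, at 7.34% against 5.31% to 5.64%. VA-free 2A alone held Mef2c-207 (16.5% against 0) and Mef2c-217 (2.87% against 0), and held Tpm1-213 at 1.57% against 0 to 0.0124%. VA-free 3B was apart for Mef2c-213 (1.32% against 0) and Tpm2-206 (15.1% against 6.04% to 7.48%).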

How the results depend on the processing

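The number of genes called was 7459 and ranged from 4476 (without control 2B) to 7744 when 1 mouse or library was left out. Transcript shares went from 892 calls to a range of 0 to 853: 0 without any 1 mouse, 108 without control 2B and 230 without control 1A. Transcript levels went from 8112 calls to a range of 2084 (without control 2B) to 7965, with 5160 without control 1A, 4947 and 4730 without control mouse 1 or 2, and 3304, 3245 and 2932 without VA-free mouse 1, 2 or 3. With 1 library per mouse they came to 3399. The exon classes with mice apart were 21 of 35, and 14 to 29 over the alternatives. The count of 14 among transcripts with an exon of the choice covers only 29 classes, so it is not like for like.

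Replicate numbers are shared between the diets, but no label ties a number to a shared litter, day or batch. Deviations of same-numbered mice had correlations of -0.0654 and 0.0103. The control mice are too few to give a separate deviation for each number. These values therefore cannot decide whether same-numbered mice shared a litter, day or batch. With the number as a block, calls were 5242 for genes, 0 for shares (limma, 5862 with an unadjusted p under 0.05) and 0 for transcript levels (edgeR, 12226 with an unadjusted p under 0.05). Tpm4 then missed the threshold (adjusted p = 0.188).

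On the TPM scale, Tpm3 turned to 0.43 with either pseudocount, and Tpm4 to 0.0664 with a pseudocount of 1 and 0.0665 with 0.1. Of 437 gene comparisons under alternatives, 402 stayed on their side of the threshold without a called change of sign, as did 914 of 967 for shares and 647 of 761 for levels. Of these 2165 comparisons, 102 changed sign while past the threshold in neither fit. Of 484 exon class values, 447 moved by less than the spread between mice. The cause of these changes was not tested. Mef2c splits rest on few reads, 450 to 1356 estimated counts per VA-free library.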
